A study of Mus musculus with 12 samples.

Results

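The CD244 effect, meaning the difference between CD244-positive and CD244-negative invariant natural killer T (iNKT) cells, was compared between lung and thymus by subtracting the thymus difference from the lung difference for each gene. All 12 of the 12 libraries of the study entered, 3 for each of 4 groups. Of 24781 gene symbols, 5138 had a value above 1 unit in at least 3 libraries and were tested. Among them, 3464 genes had at least 3 molecules summed over the 3 libraries of every group and are called genes present in all 4 groups. A further 104 had no molecule in any of the 6 thymus libraries and are called genes absent in thymus, and the other 1570 fell between. The T cell genes below come from 10 lists with 195 genes, of which 189 were in the table, 141 were tested and 121 were present in all 4 groups. The 3-molecule limit has many genes near it: 641 genes present in all 4 groups had 3 to under 4 molecules in their lowest group, and 749 genes of the class between had 2 to under 3.

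Invariant NKT cells are T lymphocytes with a semi-invariant receptor that recognises lipid antigens on CD1d. They mature in the thymus, where a fraction stays resident, and populate tissues such as lung and liver. The interferon-gamma-producing type carries NK receptors, among them NK1.1 and CD244, a receptor of the SLAM family that binds CD48.

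Each library held 100 cells from mice aged 6 weeks, sorted as positive for TCRbeta, NK1.1, CD1d tetramer and CXCR6. The CD244-positive cells are the subset named C2 and the CD244-negative cells the subset named C1, each taken from thymus and from lung. Strain, genotype and sex of the animals are not given in the sources used here. Replicates are described as separate library preparations with no animals named, so a p-value here reflects only how much these preparations varied, and that variation may be technical. The values are molecules (UMIs) times 1 constant per library, summing to 26890.5 units in each thymus library and 19342.9 in each lung library. Differences are on the log2(value + 1) scale, which understates changes of low genes. A count of 3 molecules was worth 1.12 to 1.42 units (CD244-positive) and 1.20 to 1.34 units (CD244-negative) in thymus, and 1.13 to 1.36 and 1.80 to 1.95 units in lung.

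Depth, counted as molecules per library, was 56615 to 71789 for CD244-positive and 60120 to 67478 for CD244-negative cells of thymus, and 42520 to 51436 and 29696 to 32196 for those of lung. Lung CD244-positive libraries stood apart from the rest: a chi-square between replicate pairs, divided by its degrees of freedom, was 1.65 to 1.70 there and 1.09 to 1.23 in the other groups. They also carried macrophage and monocyte marker molecules, with 20 markers summing to 76.2, 142 and 132 per 10000 molecules in libraries 1, 2 and 3, against 0.673 to 3.98 in lung CD244-negative, 1.26 to 2.12 in CD244-positive and 1.78 to 2.50 in CD244-negative thymus libraries. None of the 20 markers was at 0 in lung CD244-positive cells, 16 were at 0 in lung CD244-negative cells and 18 had no molecule in thymus. Xist, transcribed from the inactive X chromosome of females, had 19, 3 and 29 molecules in lung CD244-positive libraries and none in the 3 lung CD244-negative libraries, where 0 allows up to 3, while thymus libraries held 7 to 18. Summed over 4 Y-linked genes, lung CD244-positive libraries held 4, 14 and 0 molecules, lung CD244-negative libraries 9, 7 and 8 and thymus libraries 7 to 17. The part of marker cells, sex and depth in the differences below was not tested, and in bulk RNA fewer cells of a type and less RNA per cell cannot be told apart. The sorted gene Cd244 was too low to test: CD244-positive libraries of thymus held 8, 1 and 4 molecules and those of lung 1, 1 and 0, with none in the 6 CD244-negative libraries, where 0 allows up to 3 in each.

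The CD244 effect differed between lung and thymus for 168 of 5138 genes (3.27% of those tested) by limma at an adjusted p under 0.05, 136 higher in lung than in thymus (2.65%) and 32 lower (0.623%). Genes absent in thymus made up 65 of the 136 higher and none of the lower. Genes present in all 4 groups were about even, with 25 higher (0.722%) and 29 lower (0.837%), and the class between had 46 higher (2.93%) and 3 lower (0.191%). Scaling all libraries to the summed T cell receptor list gave 98.9% of calls on the higher side in place of 81.0%, and 97.2% in place of 46.3% among genes present in all 4 groups; it moved the median of all genes from 0.03 to 0.41. Scaling to the total of the genes present in all 4 groups put 90.8% of all calls, and 63.0% of the calls among those genes, on the higher side. Of the 54 called genes present in all 4 groups, 45 had a thymus and a lung difference of opposite sign, and 43 were called within lung but not within thymus. These 54 were selected on the difference of effects, which favours opposite signs, so the count of 45 is no result. Some of their thymus differences were near 0, such as -0.02 for Cst3 and 0.04 for Pabpc1. Within a tissue, the CD244 effect was called for 21 genes in thymus (0.409%), 17 higher (0.331%) and 4 lower (0.0779%), and for 433 in lung (8.43%), 288 higher (5.61%) and 145 lower (2.82%).

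**Figure D1:**
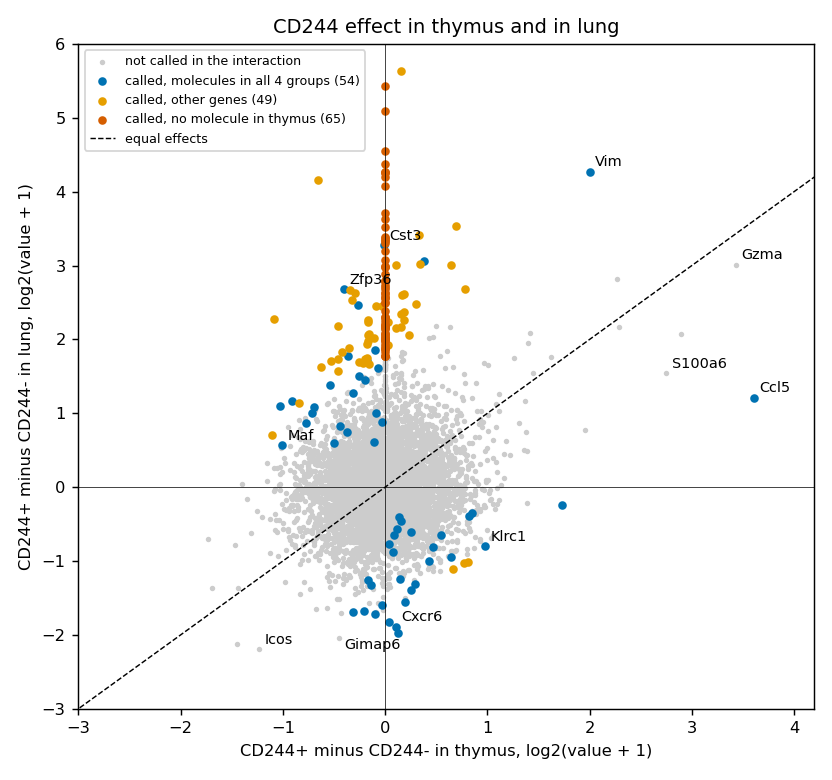
Each point is 1 of the 5138 tested genes, with the CD244-positive minus CD244-negative difference in thymus on the x axis and in lung on the y axis, both on the log2(value + 1) scale. Colours mark the 168 genes whose effects differed between tissues, the dashed line marks equal effects, and the 65 genes absent in thymus stand in a column at 0 while Vim and Ccl5 lie far to the right on either side of the line.

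Among T cell genes present in all 4 groups, the CD244 effect was lower in lung than in thymus for 12 of 121 and higher for 3, together 12.4%. Over all 3464 genes present in all 4 groups, 0.837% were lower and 0.722% higher. The lists were chosen with earlier results of these data known, so the larger share among them is no independent result. The lower genes were Gimap6, Gimap3, Ly6c2, Ly6e, Thy1, Ccr2, Cxcr6, Klrc1, Ifngr1, Il21r, Gata3 and Ccl5. The higher genes were Vim, Maf and Lamp1. The difference of effects was below 0 for 87 of the 121, with a median of -0.36 and a range of -2.40 to 2.27, against a median of -0.07 over all 3464 genes present in all 4 groups, of which 54.4% were below 0. The median became 0.09, with 57 of 121 below 0, when libraries were scaled to the T cell receptor list. It was -0.24 under the total of genes present in all 4 groups. Over all tested genes present in all 4 groups, the medians under these 2 scalings were 0.35 and 0.02. List medians under receptor-list scaling, given below, stand beside that 0.35. Over 14 other settings, Vim kept its call in all; receptor-list scaling ended those of Gimap3, Ly6e, Thy1, Ccr2, Cxcr6, Klrc1, Ifngr1, Il21r and Gata3, and thinned molecules those of Thy1, Ccr2, Ifngr1, Il21r, Gata3, Maf and Lamp1. A pseudocount of 5 ended those of Ccl5 and Gata3. Most calls were lost in the count tests on 9 libraries. There edgeR kept only those of Vim, Lamp1, Ly6c2 and Gimap6, and DESeq2 only those of Vim and Ccl5. With library 1 alone for lung CD244-positive cells, the median of the T cell genes was -0.17. Within lung, 16 of the 121 were called higher and 23 lower in CD244-positive cells, and within thymus 11 higher and 3 lower. Over all 5138 genes tested, 5.61% were higher and 2.82% lower within lung, and 0.331% and 0.0779% within thymus. These shares include genes outside the class of the 121. Of the 433 genes called within lung, 205 were among the 3464 present in all 4 groups.

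**Figure D2:**
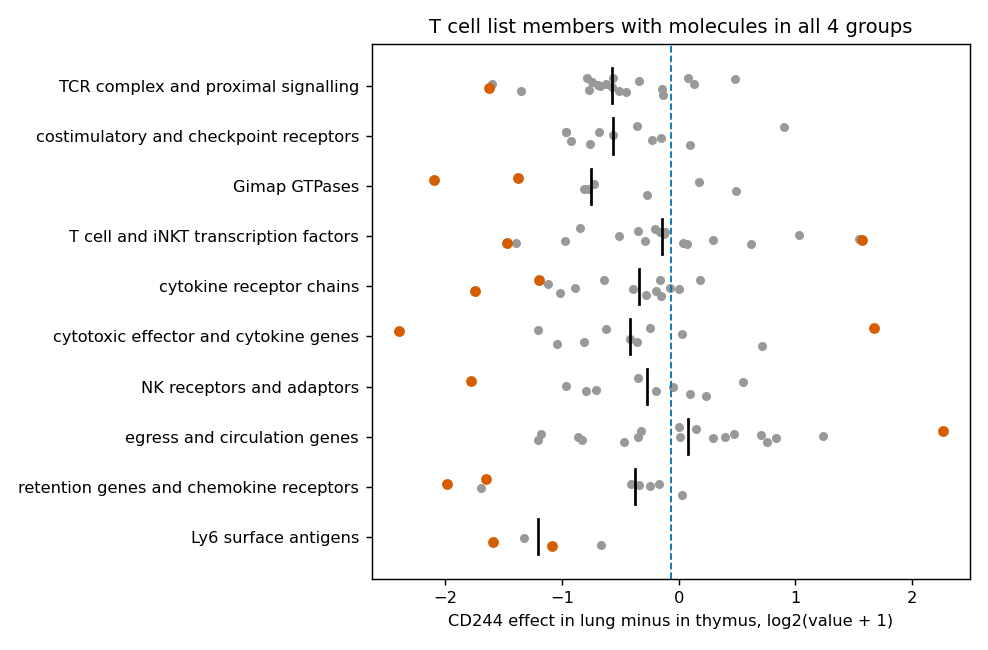
Points are the T cell list members present in all 4 groups, by list, and the x axis is the CD244 effect in lung minus that in thymus on the log2(value + 1) scale. Orange points passed the test, black bars are list medians and the dashed line is the median of all 3464 genes present in all 4 groups; the bars lie left of it except for the egress list, and the Ly6 bar lies farthest left at -1.21. Under scaling to the T cell receptor list the transcription factor, cytokine receptor, cytotoxic, NK receptor and retention medians lie above 0. The median of all genes present in all 4 groups was 0.35 under that scaling.

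The T cell receptor list was drawn up with the receptor chains, CD3 subunits and nearby signalling proteins. The chain genes Trac, Trbc1 and Trbc2 were not among the gene symbols. The 22 of 25 members found, and the scaling to this list, thus hold no receptor chain. All 19 tested members were present in all 4 groups, 16 were below 0 with a median of -0.57, and Thy1 alone passed the test. The median was -0.32 without lung CD244-positive library 2 and -0.29 in both count tests on 9 libraries, and it is near 0 by construction when libraries are scaled to this list. Per 10000 molecules, the list summed to 37.1 to 50.4 in CD244-positive against 72.4 to 79.5 in CD244-negative cells of lung, and to 49.2 to 54.7 against 56.8 to 58.2 in thymus. Thus the groups did not overlap in either tissue, and the gap was wider in lung. Thy1, a surface glycoprotein of T cells, read 8.62, 6.78 and 6.17 units in CD244-positive and 6.38, 6.84 and 10.3 in CD244-negative thymus libraries, and 5.15, 1.36 and 4.89 in CD244-positive and 9.77, 13.5 and 18.6 in CD244-negative lung libraries. The thymus groups overlapped, and every lung CD244-positive library was below every lung CD244-negative library. Effects differed by -1.63 (SE 0.42, adjusted p = 0.0113), from -0.09 in thymus and -1.72 in lung. This call was lost without lung CD244-positive library 2, thymus CD244-negative library 1 or lung CD244-negative library 3, with an adjusted p of up to 0.175 over the leave-outs. It was also lost under receptor-list scaling, thinned molecules, edgeR, DESeq2 and library 1 alone for lung CD244-positive cells. The scaffold receptor gene Cd6, at -1.60 (adjusted p = 0.0575), missed the threshold.

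The Gimap genes encode GTPases of the immune-associated protein family that support lymphocyte survival and lie in 1 cluster on chromosome 6. Gimap6 (mm10 chr6:48701582-48708225, minus strand) and Gimap3 (chr6:48764464-48770851, minus strand) passed the test, and 6 of the 8 members were below 0, with a median of -0.75 (-0.23 under receptor-list scaling). Gimap6 read 12, 8.90 and 9.62 units in CD244-positive and 9.56, 8.45 and 9.50 in CD244-negative thymus libraries, and 7.13, 4.09 and 1.5 in CD244-positive and 17.6, 19.2 and 15.6 in CD244-negative lung libraries. The thymus groups overlapped, whereas in lung all 3 CD244-positive libraries were under every other library of the series. Its difference of effects was -2.10 (SE 0.39, adjusted p = 9.44e-05), from 0.13 in thymus and -1.97 in lung. Gimap3 read 15, 14.9 and 14.7 units in CD244-positive and 17.1, 19.4 and 19.7 in CD244-negative thymus libraries, and 6.07, 4.09 and 4.51 in CD244-positive and 18.9, 16.0 and 18.6 in CD244-negative lung libraries. It was a little lower in CD244-positive cells of thymus, without a call, and lower in every such library of lung. Effects differed by -1.38 (SE 0.32, adjusted p = 0.00371), from -0.31 and -1.69. With DESeq2 or library 1 alone for lung CD244-positive cells both calls were lost, and that of Gimap3 also under receptor-list scaling and edgeR, with an adjusted p of up to 0.256 for Gimap6 and 0.442 for Gimap3. Summed over the 8 members, the lung groups held 12.1 to 19.4 and 40.4 to 41.1 molecules per 10000, and the thymus groups 21.5 to 24.7 and 26.7 to 30.6, CD244-positive first.

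The 250 bases before the RefSeq start of both genes (GRCm38.p6) are shown because these 2 genes of the cluster passed the test in the same direction; Gimap7, Gimap1 and Gimap5 lie between them and were not called, and the start-proximal end is at the right. The windows are chr6:48708245-48708494 for Gimap6 and chr6:48770852-48771101 for Gimap3, both on the minus strand. The RUNX core TGTGGT, searched on both strands, had no match in either, so no letters are in capitals; 3 of the 8 Gimap windows (37.5%) and 14% of all 32536 windows of this length held it.
Gimap6: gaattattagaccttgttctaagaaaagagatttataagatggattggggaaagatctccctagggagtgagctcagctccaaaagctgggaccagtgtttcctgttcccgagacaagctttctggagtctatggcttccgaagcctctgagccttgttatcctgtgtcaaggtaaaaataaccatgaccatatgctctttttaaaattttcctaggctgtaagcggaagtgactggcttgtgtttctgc
Gimap3: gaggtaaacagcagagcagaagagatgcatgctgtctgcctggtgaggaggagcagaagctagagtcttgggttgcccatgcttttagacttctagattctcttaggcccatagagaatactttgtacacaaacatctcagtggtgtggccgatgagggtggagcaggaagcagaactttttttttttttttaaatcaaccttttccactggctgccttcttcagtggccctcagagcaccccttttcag

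The Ly6 surface antigens gave the lowest median of the 10 lists, -1.21, with all 4 members present in all 4 groups below 0 and Ly6c2 and Ly6e past the test. The median of these 4 was -0.71 under scaling to the T cell receptor list. Ly6c2, a GPI-anchored antigen of memory T cells, read 32.8, 23.1 and 26.4 units in CD244-positive and 20.0, 15.1 and 16.3 in CD244-negative thymus libraries, and 15, 17.7 and 10.9 in CD244-positive and 26.1, 34.0 and 26.1 in CD244-negative lung libraries. The direction was opposite in the 2 tissues, and neither pair of groups overlapped. The difference of effects was -1.59 (SE 0.28, adjusted p = 2.65e-05), from 0.64 in thymus (not called) and -0.95 in lung. Ly6c1 is a near-identical copy of this gene, and how reads were split between them is not stated. Ly6e, a GPI-anchored antigen induced by interferon, read 42.0, 32.2 and 27.5 units in CD244-positive and 30.8, 39.4 and 44.3 in CD244-negative thymus libraries, and 14.3, 10.9 and 12.4 in CD244-positive and 33.2, 25.7 and 35.4 in CD244-negative lung libraries. It overlapped in thymus and was lower in every lung CD244-positive library. Effects differed by -1.09 (SE 0.26, adjusted p = 0.00432). The Ly6e call was lost under receptor-list scaling, edgeR, DESeq2 and library 1 alone for lung CD244-positive cells (adjusted p up to 0.839), and that of Ly6c2 under DESeq2 (adjusted p = 0.0995).

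**Figure D3:**
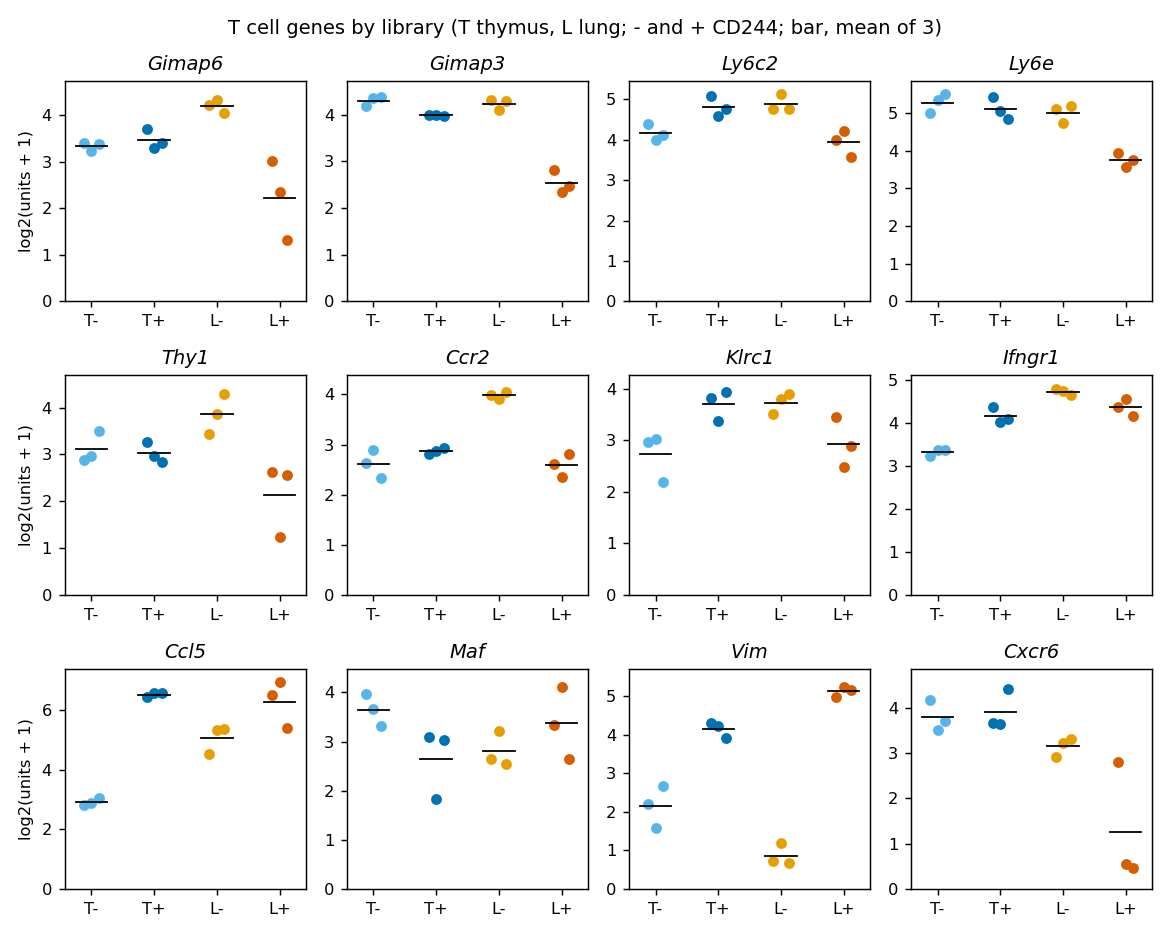
Values of 12 T cell genes in every library on the log2(units + 1) scale, with T for thymus, L for lung, the sign for CD244 and bars at the mean of 3 libraries. Gimap6, Thy1, Ccr2 and Cxcr6 are low in lung CD244-positive libraries and level in thymus, Ly6c2 and Klrc1 run in opposite directions in the 2 tissues, Ccl5 has its widest gap in thymus and Vim in lung.

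Of the chemokine receptor and retention genes, 8 were present in all 4 groups, with Ccr2 and Cxcr6 past the test and a median of -0.37 (0.01 under scaling to the T cell receptor list). Ccr2, the receptor for CCL2, read 5.99, 6.36 and 6.65 units in CD244-positive and 5.18, 6.43 and 4.03 in CD244-negative thymus libraries, and 5.15, 4.09 and 6.02 in CD244-positive and 15, 14.1 and 15.6 in CD244-negative lung libraries. Lung CD244-negative cells alone were high, and the other 3 groups overlapped. Lung minus thymus, the effect was -1.65 (SE 0.39, adjusted p = 0.00454). The Ccr2 call was lost in 5 of 14 other settings, namely receptor-list scaling, thinned molecules, edgeR, DESeq2 and library 1 alone for lung CD244-positive cells, with an adjusted p of up to 0.380. Cxcr6, the receptor for CXCL16 and a gate of the sort in all 4 groups, read 11.6, 11.4 and 20.4 units in CD244-positive and 17.1, 10.5 and 12.1 in CD244-negative thymus libraries, and 5.94, 0.455 and 0.376 in CD244-positive and 6.51, 8.34 and 9.01 in CD244-negative lung libraries. Lung CD244-positive libraries 2 and 3 held 1 molecule each, where library 1 held 15. Lung minus thymus, the effect was -1.99 (SE 0.57, adjusted p = 0.049), but it was -0.46 (adjusted p = 0.898) with library 1 as the only one of its group, and 8 of the 12 leave-outs lost the call, with an adjusted p of up to 0.163. Cxcr6 also lies across from Fyco1 on the other strand, and the use of strand in counting is not stated. The gate gene Klrb1c, which encodes NK1.1, was not called at -0.80 (95% interval -1.47 to -0.12, adjusted p = 0.262).

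Among NK receptor and adaptor genes, 10 were present in all 4 groups, with a median of -0.27 (0.29 under receptor-list scaling), and Klrc1 passed the test. Klrc1, which encodes the inhibitory receptor NKG2A, read 13.1, 9.33 and 14.2 units in CD244-positive and 6.77, 7.11 and 3.58 in CD244-negative thymus libraries, and 9.90, 4.55 and 6.39 in CD244-positive and 10.4, 12.8 and 13.8 in CD244-negative lung libraries. The CD244-positive libraries were the higher ones in thymus and the lower ones in lung, without overlap in either. The difference of effects was -1.78 (SE 0.39, adjusted p = 0.00129), although neither tissue alone passed, with 0.98 in thymus (adjusted p = 0.116) and -0.80 in lung (adjusted p = 0.0523). The Klrc1 call was lost under receptor-list scaling, edgeR, DESeq2 and library 1 alone for lung CD244-positive cells, with an adjusted p of up to 0.428. In the class between, the Fc receptor gene Fcgr3 (2.90) and the adaptor gene Tyrobp (2.35) were higher; both genes are also expressed by macrophages.

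Of 14 cytokine receptor chains, Ifngr1 and Il21r passed and 12 were below 0, with a median of -0.34 (0.07 under receptor-list scaling). Ifngr1, the ligand-binding chain of the interferon-gamma receptor, read 19.9, 15.4 and 16.1 units in CD244-positive and 8.37, 9.35 and 9.39 in CD244-negative thymus libraries, and 19.8, 22.7 and 16.9 in CD244-positive and 26.7, 25.7 and 24 in CD244-negative lung libraries. It rose in CD244-positive thymus cells by 0.85 (adjusted p = 0.0281) and was -0.35 in lung (adjusted p = 0.360). Effects differed by -1.20 (SE 0.29, adjusted p = 0.00569), and without lung CD244-positive library 3 its adjusted p was 0.0569. The Ifngr1 call was also lost under receptor-list scaling, thinned molecules, edgeR, DESeq2 and library 1 alone for lung CD244-positive cells. Il21r, the interleukin-21 receptor, read 0.424 to 3.00 units in the 6 thymus libraries, 1.98, 3.18 and 1.5 in CD244-positive and 8.47, 6.42 and 10.2 in CD244-negative lung libraries. Its difference of effects of -1.75 (SE 0.53, adjusted p = 0.0452) was lost in 10 of the 12 leave-outs, with an adjusted p of up to 0.231. The common gamma chain gene Il2rg was at -1.12 (adjusted p = 0.0575) and missed the threshold.

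Of 18 transcription factor genes, Gata3 was lower and Maf higher, with a median of -0.14 that became 0.35 under receptor-list scaling, 0.10 with thinned molecules and 0.06 with library 1 alone for lung CD244-positive cells. Gata3, a factor of T cell and type 2 development, read 8.24, 10.6 and 8.55 units in CD244-positive and 12.4, 11.3 and 8.50 in CD244-negative thymus libraries, and 3.56, 0.910 and 2.26 in CD244-positive and 13.0, 8.34 and 6.01 in CD244-negative lung libraries. The thymus groups overlapped and the lung groups did not. The difference of effects was -1.47 (SE 0.42, adjusted p = 0.0303). Maf, a factor of interleukin-producing T cells that macrophages also express, read 7.49, 2.54 and 7.12 units in CD244-positive and 14.7, 11.7 and 8.95 in CD244-negative thymus libraries, and 9.11, 16.4 and 5.26 in CD244-positive and 5.21, 8.34 and 4.81 in CD244-negative lung libraries. It was lower in every CD244-positive thymus library, and the lung groups overlapped. Lung minus thymus, the effect was 1.58 (SE 0.43, adjusted p = 0.0170), with neither tissue called alone. Gata3 overlaps 4930412O13Rik on the other strand and 9230102O04Rik on its own. Calls for Gata3 were lost in 7 of the 12 leave-outs and for Maf in 4, with adjusted p-values of up to 0.229 and 0.200.

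Cytotoxic and cytokine genes divided: of 11 present in all 4 groups, Ccl5 was lower, Lamp1 higher and the median was -0.42 (0.26 under receptor-list scaling). Ccl5, a chemokine of effector T and NK cells, read 85.5, 95.4 and 93.9 units in CD244-positive and 5.98, 6.43 and 7.38 in CD244-negative thymus libraries, and 90.7, 122 and 41.7 in CD244-positive and 22.1, 39.8 and 40.3 in CD244-negative lung libraries. CD244-positive cells were higher in both tissues without overlap, though lung CD244-positive library 3 came close to the CD244-negative libraries. The effect was 3.61 in thymus (adjusted p = 0.000208) and 1.21 in lung (adjusted p = 0.0485), and their difference was -2.40 (SE 0.47, adjusted p = 0.0163). The call was lost without thymus CD244-negative library 1 or 2, with an adjusted p of up to 0.0579. It was also lost with a pseudocount of 5 and with edgeR, with an adjusted p of up to 0.135. Lamp1, the lysosomal membrane protein CD107a exposed upon degranulation, read 0.424 to 3.00 units in the 6 thymus libraries, 10.7, 10.5 and 12.8 in CD244-positive and 3.26, 1.92 and 4.21 in CD244-negative lung libraries. Its difference of effects of 1.68 (SE 0.51, adjusted p = 0.049) was lost in 8 of the 12 leave-outs, with an adjusted p of up to 0.304. Lamp1 overlaps Grtp1 on the other strand and is also a lysosomal gene of macrophages.

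Vim was the only 1 of 18 egress and circulation genes present in all 4 groups that passed, and the list median was 0.08 (0.71 under receptor-list scaling, 0.25 under the total of genes present in all 4 groups, 0.21 without lung CD244-positive library 1, -0.05 with thinned molecules and -0.11 without lung CD244-negative library 1). Vimentin, an intermediate filament of migrating leukocytes and macrophages, read 18.7, 17.8 and 14.2 units in CD244-positive and 3.59, 2.01 and 5.37 in CD244-negative thymus libraries, and 30.9, 36.8 and 35 in CD244-positive and 0.651, 1.28 and 0.601 in CD244-negative lung libraries. CD244-positive cells were far higher in both tissues. Vim rose by 2.0 in thymus and 4.27 in lung, a difference of effects of 2.27 (SE 0.40, adjusted p = 2.77e-05). In the class between, the chemokine receptor gene Cx3cr1 was higher at 2.43 (adjusted p = 0.00477). Lung CD244-negative libraries held no molecule of Cx3cr1, and the part of macrophage and monocyte marker cells in its difference was not tested. The 11 costimulatory and checkpoint genes gave no call, with 9 below 0 and a median of -0.56 (-0.21 under receptor-list scaling and -0.27 with thinned molecules). In that list Icos, a costimulatory receptor, read 3.75, 3.39 and 2.37 units in CD244-positive and 5.98, 12.1 and 8.95 in CD244-negative thymus libraries, and 7.13, 3.18 and 4.14 in CD244-positive and 26.7, 25.7 and 21.6 in CD244-negative lung libraries. It fell in both tissues, by 1.23 and 2.19, and the difference of effects was -0.96 (95% interval -1.76 to -0.17, adjusted p = 0.245). Cd48, the ligand of CD244, had a difference of effects of 0.90 (95% interval -0.09 to 1.89, adjusted p = 0.464).

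Of the 21 genes called in thymus, 19 had the same sign in lung, 16 were also called there and 4 differed between tissues (Vim, Ccl5, Ifngr1 and the factor gene Sp4 at -1.97). They were selected on the thymus effect, which enters the difference, so a lean of these differences below 0 is no result. The granzyme gene Gzma rose by 3.43 in thymus and 3.01 in lung, and the difference of -0.42 had a 95% interval of -1.49 to 0.65. The calcium-binding protein gene S100a6 rose by 2.75 and 1.54, with a difference of -1.21 (95% interval -2.03 to -0.39, adjusted p = 0.0954).

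Outside the T cell lists, the remaining called genes present in all 4 groups included Bcl2, an anti-apoptotic gene, at -1.60, and ferritin, cathepsin and lysosomal genes on the higher side. Bcl2 read 11.2, 8.90 and 7.6 units in CD244-positive and 7.57, 7.64 and 6.71 in CD244-negative thymus libraries, and 2.77, 3.64 and 1.5 in CD244-positive and 7.82, 7.06 and 8.41 in CD244-negative lung libraries. Lung CD244-positive libraries were the lowest of the series. The Bcl2 call was lost without lung CD244-positive library 3 or thymus CD244-positive library 1, with an adjusted p of up to 0.136 over the leave-outs. It was also lost under receptor-list scaling, edgeR, DESeq2 and library 1 alone for lung CD244-positive cells. Cst3 (cystatin C, 3.29), Fth1 and Ftl1 (the ferritin chains, 1.66 and 1.95), Ctsb and Ctsc (cathepsins, 2.74 and 2.68) and Psap (a saposin precursor, 1.76) were higher. Cst3 read 2.62, 2.54 and 2.37 units in CD244-positive and 3.59, 2.01 and 2.24 in CD244-negative thymus libraries, and 18.2, 30.7 and 39.1 in CD244-positive and 1.30, 1.92 and 3.00 in CD244-negative lung libraries. Cst3, Ftl1, Ctsb, Ctsc and Psap were lowest in library 1 among the lung CD244-positive libraries, as was the macrophage marker sum. Fth1 was lowest in library 2, with 57.1, 49.2 and 84.2 units in libraries 1, 2 and 3. The part of the marker sum in these differences was not tested. Among 79 cytosolic ribosomal protein genes, a set chosen after seeing the data, 2 were higher, 4 lower and 64 below 0, with a median of -0.29. Among all genes present in all 4 groups 0.722% were higher, 0.837% lower and 54.4% below 0, with a median of -0.07. Receptor-list scaling moved that median to 0.35, and the ribosomal median was not computed under that scaling.

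Of 34 tested immediate early and activation genes, 11 were higher and 1 lower, against 2.65% and 0.623% of all genes tested. Only 18 of them were present in all 4 groups, with 1 higher (Zfp36), 1 lower (Zfp36l2) and 9 on either side of 0; the other 10 higher genes were absent in thymus or in the class between. Zfp36, which encodes the mRNA-decay factor tristetraprolin, read 2.25, 0.424 and 2.37 units in CD244-positive and 2.79, 2.41 and 1.79 in CD244-negative thymus libraries, and 11.1, 11.4 and 13.9 in CD244-positive and 1.30, 1.28 and 0.601 in CD244-negative lung libraries. The 3 lung CD244-positive libraries alone were high, and the difference of effects was 3.09 (SE 0.51, adjusted p = 9.47e-06). Its relative Zfp36l2 was lower at -0.95 (adjusted p = 0.0368). The summed list held 146 to 169 molecules per 10000 in CD244-positive and 116 to 124 in CD244-negative cells of lung, with 44.5 to 48.1 and 46.4 to 52.1 in thymus. Both lung groups were thus above both thymus groups.

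**Figure D4:**
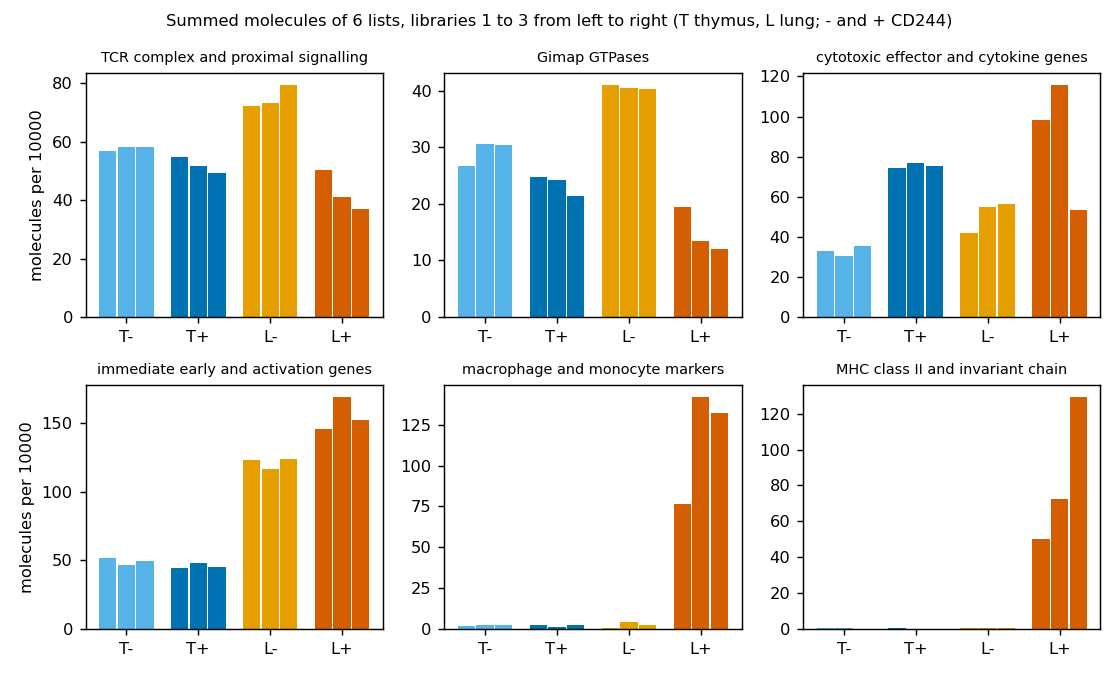
Bars give the summed molecules per 10000 of 6 gene lists in each library, libraries 1 to 3 from left to right, with T for thymus, L for lung and the sign for CD244. Receptor and Gimap sums dip in lung CD244-positive libraries, immediate early sums are high in both lung groups, and macrophage and MHC class II sums stand out in lung CD244-positive libraries.

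Genes absent in thymus are described apart, since with no thymus molecule their difference of effects equals the lung effect. Of the 104 tested, 65 were higher (62.5%); a gene held by lung CD244-positive cells alone needed a value above 1 in all 3 of those libraries to be tested, so it had to differ. The class took 2.48% to 3.92% of molecules in CD244-positive and 0.153% to 0.166% in CD244-negative lung libraries. Apoe, the apolipoprotein of macrophages, read 26.5, 61.0 and 46.3 units in lung CD244-positive libraries and 0 in all other libraries, at least 69.6-fold higher in lung CD244-positive than in lung CD244-negative cells (floor: 3 molecules summed over that group). The complement gene C1qa read 11.9, 22.7 and 14.7 units there and 0 elsewhere, at least 25.6-fold higher on the same floor. The MHC class II gene H2-Aa read 26.1, 35.3 and 63.4 units in lung CD244-positive libraries, and 1 lung CD244-negative library held 0.601. All 15 tested macrophage and monocyte markers and all 5 tested MHC class II genes were higher, and MHC class II molecules summed to 50.1 to 129 per 10000 in lung CD244-positive against 0.332 to 0.673 in lung CD244-negative libraries. Of the other marker lists, no B cell, dendritic cell or endothelial gene passed the value filter, 1 epithelial gene and 1 thymocyte gene were tested without a call, and 1 of 3 tested NK cell markers (Fcgr3) was higher.

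Upstream windows of 250 bases are shown for 3 genes absent in thymus, from RefSeq on GRCm38.p6, because class II genes moved as a group and Fos leads the immediate early genes of this class. They are chr17:34287824-34288073 (minus strand) for H2-Aa, chr17:34305617-34305866 (plus strand) for H2-Eb1 and chr12:85473640-85473889 (plus strand) for Fos. Capitals mark CCAAT, as in Y boxes, in the class II windows (ATTGG where the match is on the other strand) and TGACGT, the cAMP response element core, in Fos. Between the nearest match and the start lie 43 bases in H2-Aa, 30 in H2-Eb1 and 60 in Fos. CCAAT was in 3 of the 3 class II genes with a window and in 33.8% of all 32536 windows. TGACGT was in 2 of 9 higher immediate early genes with a window (22.2%) and in 6.5% of those 32536 windows.
H2-Aa: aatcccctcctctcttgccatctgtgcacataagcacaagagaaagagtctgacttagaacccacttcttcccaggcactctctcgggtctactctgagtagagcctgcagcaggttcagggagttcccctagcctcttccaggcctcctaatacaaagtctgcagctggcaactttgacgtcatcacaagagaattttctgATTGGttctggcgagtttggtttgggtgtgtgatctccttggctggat
H2-Eb1: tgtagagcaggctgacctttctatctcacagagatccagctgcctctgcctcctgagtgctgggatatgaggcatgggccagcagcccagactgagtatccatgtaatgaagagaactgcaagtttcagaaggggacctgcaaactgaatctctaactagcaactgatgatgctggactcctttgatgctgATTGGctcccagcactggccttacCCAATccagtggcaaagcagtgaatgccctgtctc
Fos: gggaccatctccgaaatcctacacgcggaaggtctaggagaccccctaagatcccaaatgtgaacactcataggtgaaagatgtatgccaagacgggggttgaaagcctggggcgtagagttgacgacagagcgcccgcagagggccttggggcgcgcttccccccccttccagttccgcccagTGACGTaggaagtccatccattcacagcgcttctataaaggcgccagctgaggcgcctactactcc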

How the data were processed

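RNA from 12 libraries of 100 sorted mouse iNKT cells was measured with molecular barcodes on an oligo-dT primer and ERCC spike-ins, per the labels' protocols. STAR, with no version given, and the mm10 build are named, per the submitters' processing notes; the counting and scaling formula are not given in the sources used here. The deposited table of the authors holds a signal per gene and library. Nonzero values were multiples of 0.01 of a library constant, 94.3% to 95.9% whole (tolerance 1e-06), and 0 ERCC rows were present. These are normalized values, and they were tested as the design had laid down for such a unit.

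Values were taken as log2(value + 1), and genes above 1 in at least 3 libraries were fitted with limma 3.58.1 (trend and robust, R 4.3.3) in 1 model of 4 group means. Two-sided p-values were adjusted over all 5138 genes (Benjamini-Hochberg) and called under 0.05. Intervals are 95%, unadjusted. Lists and the members described were chosen with earlier results of these data known. Named were, among genes present in all 4 groups, up to 15 higher and 15 lower with the smallest p, up to 10 absent in thymus, called T cell list members, the 2 smallest p of a list with no call, and the gate genes; other genes were singled out after their values were seen. Positions are from GENCODE M21, with 24197 of 24781 symbols matched to 1 gene. On simulated data with 5149 genes tested, the difference of effects recovered 12% of 2-fold and 48% of 4-fold changes (100 genes each) and called 6 unchanged genes, at a common dispersion of 0.0115, below the spread of lung CD244-positive replicates.

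Alternatives were pseudocounts 0.5 and 5, other filters, quantile and total scalings, thinning, sample weights, a replicate block, each library left out, lung CD244-positive library 1 alone (chosen after seeing the data), and edgeR 4.0.16 and DESeq2 1.42.0 on recovered molecules of 9 libraries. The other 3 libraries have a fraction of a molecule as smallest value, so whole steps could not be checked.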

Additional observations from a re-analysis of the deposited data

Results flagged for a closer look

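The CD244 effect differed between lung and thymus, by the test of the difference itself (limma, adjusted p under 0.05), for 45 of the named genes, and the values here are that difference on the log2(value + 1) scale. T cell genes with a lower effect in lung were Gimap6 -2.10, Gimap3 -1.38, Ly6c2 -1.59, Ly6e -1.09, Thy1 -1.63, Ccr2 -1.65, Cxcr6 -1.99, Klrc1 -1.78, Ifngr1 -1.20, Il21r -1.75, Gata3 -1.47 and Ccl5 -2.40. T cell genes with a higher effect in lung were Vim 2.27, Lamp1 1.68 and Maf 1.58. Other genes present in all 4 groups were lower for Snord118 -1.87, Bcl2 -1.60, D17H6S56E-5 -1.40, Pabpc1 -0.81, Rps6 -0.73 and Rpl13a -0.69, and higher for Cst3 3.29, Zfp36 3.09, Ctsb 2.74, Ctsc 2.68, Man2b1 2.13, Stxbp2 2.07, Ftl1 1.95, Tuba1b 1.78, Psap 1.76, Fth1 1.66, Serinc3 1.12, Itm2b 1.09, Rps27 0.92 and Rpl35 0.72. Of Rps27, 83.3% of the values were not whole molecules. Genes absent in thymus were Apoe 5.43, H2-Aa 5.09, H2-Eb1 4.56, H2-Ab1 4.37, Cd14 4.27, C1qc 4.26, Mrc1 4.26, C1qb 4.2, C1qa 4.08 and Cxcl2 3.71, and for these the difference equals the lung effect.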

How the results depend on the processing

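No called named gene changed sign under the settings and leave-outs run, and 7 of the 45 called (D17H6S56E-5, Cst3, Fth1, Ftl1, Rps27, Zfp36 and Vim) kept their call in every setting and leave-out, while 28 kept it with each library left out. Counts are given here as genes higher in the interaction (the difference of effects) and lower, those present in all 4 groups higher and lower, those absent in thymus higher, and T cell list members higher and lower. They were 136, 32, 25, 29, 65, 3 and 12 in the reported fit. Scaled to the T cell receptor list they were 345, 4, 137, 4, 97, 8 and 3. Thinned to the shallowest library they were 68, 17, 12, 17, 36, 1 and 8. With edgeR they were 16, 5, 12, 5, 0, 2 and 2, of 1154 genes tested, with 152 at an unadjusted p under 0.05. With DESeq2 they were 9, 2, 7, 2, 0, 1 and 1, with 88 at an unadjusted p under 0.05. With library 1 standing alone for lung CD244-positive cells, assumed to vary like the other groups, they were 12, 4, 7, 4, 2, 1 and 2, and the T cell median was -0.17. The stricter filter gave 58 higher, 44 lower among genes present in all 4 groups and 24 absent in thymus, with 55.8% of calls higher. The total of genes present in all 4 groups gave 17 lower, all of them in that class. Fewer genes or samples were tested in the filtered, count-based and reduced fits; otherwise the cause was not tested. edgeR called Vim and Lamp1 higher and Ly6c2 and Gimap6 lower among T cell genes, and DESeq2 Vim higher and Ccl5 lower.

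Leaving out 1 library gave 31 to 127 higher, 16 to 46 lower, 14 to 26 higher and 16 to 45 lower among genes present in all 4 groups, 4 to 60 absent in thymus, and 1 to 3 higher and 8 to 13 lower T cell members. Lung CD244-positive libraries moved these most: without library 1, 2 or 3 there were 49, 34 and 31 higher genes and 4 absent in thymus each, since only 13 to 15 of those then passed the filter. Without library 1 of that group, 45 genes present in all 4 groups were lower, and without library 2 or 3, 17. Lower calls also fell to 16 without thymus CD244-positive library 2 and to 17 without thymus CD244-negative library 2; without thymus CD244-positive library 3, 15 were higher. A lone T cell member was higher without thymus CD244-positive library 2, without thymus CD244-negative library 1, and without lung CD244-positive library 2.

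Replicate numbers name preparations, and whether they pair the samples is not stated. The correlation of deviations between same-numbered libraries was -0.03 to 0.02, with 0 of 18 pairs over 0.1. Between libraries of different number it was -0.04 to 0.03. These correlations cannot exclude pairing, since replicates outside lung CD244-positive cells varied little beyond the sampling of molecules. With the replicate block, 131 genes were higher and 30 lower, 22 and 28 of them present in all 4 groups, 65 absent in thymus, and 3 and 12 T cell members. Low depth limits the lung CD244-negative libraries most, where 3 molecules are 1.80 to 1.95 units.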

Other observations

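Kif3a and Ccdc36, called at 2.14 and 1.88, had equal molecule counts in 7 of 12 libraries. A library where neither had a molecule would count as equal. The genes lie on chromosomes 11 and 9, and whether molecules were shared between them was not tested.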
